A study of Mus musculus with 6 samples.

Results

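The genes described here are 9 transcription factors that set hepatocyte identity: Hnf4a, Foxa1, Foxa2, Foxa3, Cebpa, Cebpb, Onecut1, Prox1 and Nr5a2. They were chosen by symbol from the 17975 genes of the liver RNA-seq table, 1 row for each symbol, and all 9 passed the filter on low counts that kept 13805 genes. The study compared 3 homozygous hepatocyte Nek7 knockout (Hom) livers with 3 wild-type (WT) livers, to ask what the loss of this kinase does to the liver. Hom mice carry NEK7 fl/fl with Alb-Cre(+), a Cre recombinase driven by the albumin promoter, which acts in hepatocytes and the cells they come from. The mice called WT were either NEK7 fl/fl without Cre or Alb-Cre(+) without floxed alleles, and which of these each sequenced WT liver had is not given in the sources used here. The lines were on a C57BL/6 background, both sexes were used, the labels name no treatment, and the age of the sequenced mice is not given. Each library is 1 mouse, and whole liver was sequenced, so the RNA of every liver cell type is pooled. In such samples fewer hepatocytes and less RNA in each hepatocyte cannot be told apart.

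Hepatocytes keep their character through a small network of transcription factors that bind one another's promoters and enhancers. HNF4A is a nuclear receptor at the centre of this network and activates genes for apolipoproteins, clotting factors and bile acid enzymes. FOXA1, FOXA2 and FOXA3 are forkhead proteins that open compact chromatin at liver enhancers. C/EBPα, encoded by Cebpa, sustains metabolic genes in the quiescent hepatocyte, and C/EBPβ, encoded by Cebpb, takes part in the acute phase response and in regeneration. ONECUT1 (HNF6) acts in hepatocytes and in bile duct formation. NR5A2 (LRH-1) activates bile acid and cholesterol genes, and PROX1, a homeobox protein, binds NR5A2 and HNF4A and represses their activity at Cyp7a1. PROX1 is also the factor that defines lymphatic endothelium.

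In Hom livers, Prox1 rose about 2.17-fold, Hnf4a, Cebpb and Foxa1 fell, and the other 5 factors did not pass the test. At a threshold of 0.05 on the Benjamini-Hochberg adjusted p over all 13805 genes, from the quasi-likelihood test of edgeR on estimated counts, 1 of 9 factors was higher and 3 of 9 were lower. Among all tested genes, 21.5% were higher, 20.1% lower and 41.7% called in either direction, so 4 calls among 9 factors is near the share over the whole table. The median log2 fold change of the 9 factors was -0.60, and that of all tested genes was -0.002. Levels below are CPM, the counts of a gene scaled to a common library total, after TMM scaling, a step that corrects for a few abundant genes taking a different share of each library, and errors are SD with n = 3. Nek7 itself fell in each Hom liver, from 62.9, 69.1 and 63.7 CPM in WT livers to 14.5, 18.1 and 16.7 CPM in Hom livers (log2 fold change -1.99, adjusted p = 1.59e-04 in edgeR's test).

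**Figure D1:**
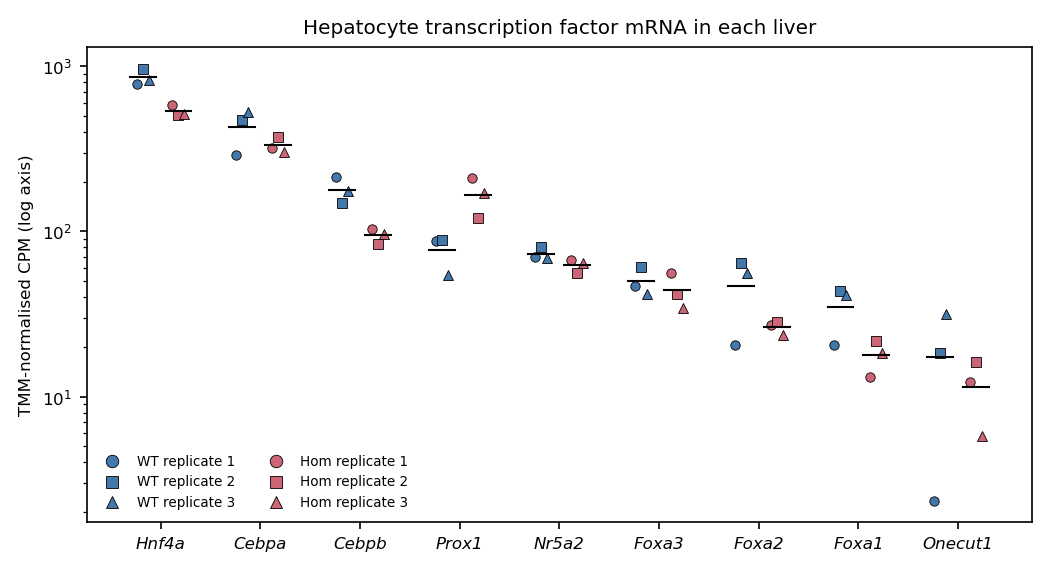
TMM-normalised CPM of each factor on a log axis in 3 WT livers (blue) and 3 Hom livers (red), with 1 symbol shape per replicate number and a black line at each group mean. Prox1 sat at 121 CPM or more in the Hom livers and at 89.3 CPM or less in the WT livers, while Onecut1 ranged from 2.35 to 31.5 CPM within the WT group.

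Total estimated counts ran from 19349418 to 19730236, so depth was nearly equal, while the TMM factors of WT livers were 0.806 to 0.924 and those of Hom livers were 1.09 to 1.23. A library of each group stood apart. WT 1 differed from WT 2 and WT 3 with a chi-square per degree of freedom of 143 and 163, against 23.8 between the latter, and Hom 1 differed from Hom 2 and Hom 3 with 85.3 and 79.9, against 26.6. WT 1 held 1021 counts of Ngp and 257 of Mpo, both neutrophil precursor genes, where WT 2 and WT 3 held 2 or fewer of each and Hom 2 held 183 of Ngp. Hom 1 held no count of the Y-linked genes Ddx3y and Kdm5d, which the other 5 livers expressed. Of the Y-linked genes Eif2s3y and Uty it held 4 and 149 counts, where the other livers held 582 or more and 464 or more. Results that rest on these libraries are given with and without them, and the part of neutrophil RNA or of sex in them was not tested.

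For the 4 factors that passed the test, the bases just before each RefSeq start are shown, to show which factor motifs lie next to the start. They were read from RefSeq promoter windows on GRCm38.p6, which held all 9 factors in 14 windows. Each line gives the 250 bases up to the start, in the direction of transcription. Capitals mark exact matches on either strand to 7 short motifs. They were TGTTTAC for the FOXA proteins, ATTGATT for the ONECUT proteins, TTGCNNAA for C/EBP, CAAGGTCA for NR5A, CAAAGTCC for HNF4, GTTAATNA for HNF1 and TATAAA for the core promoter box of that name, and no match overlapped another in the lines shown. Hnf4a has an upstream start (chr2:163506607-163506856, plus strand) and a downstream start (chr2:163546905-163547154, plus strand). The lines for Foxa1 (chr12:57546112-57546361, minus strand) and Cebpb (chr2:167688665-167688914, plus strand) each precede the single RefSeq start of the gene. GENCODE M21 places the upper end of Foxa1 farther upstream, at 57546916, so the Foxa1 line lies within that gene span, and RefSeq and GENCODE starts of Hnf4a and Prox1 differ too. Prox1 has an upstream start (chr1:190170828-190171077, minus strand) and a downstream start (chr1:190169516-190169765, minus strand).
Hnf4a upstream start: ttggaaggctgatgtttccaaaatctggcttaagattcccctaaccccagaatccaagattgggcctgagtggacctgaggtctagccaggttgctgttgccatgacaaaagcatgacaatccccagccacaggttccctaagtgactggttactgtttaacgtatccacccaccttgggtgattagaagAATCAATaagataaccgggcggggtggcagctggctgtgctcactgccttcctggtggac
Hnf4a downstream start: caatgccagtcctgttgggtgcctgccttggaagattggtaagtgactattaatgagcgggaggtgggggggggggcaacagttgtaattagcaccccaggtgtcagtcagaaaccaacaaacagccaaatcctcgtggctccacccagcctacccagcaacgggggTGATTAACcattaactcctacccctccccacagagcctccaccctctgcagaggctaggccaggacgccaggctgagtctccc
Foxa1: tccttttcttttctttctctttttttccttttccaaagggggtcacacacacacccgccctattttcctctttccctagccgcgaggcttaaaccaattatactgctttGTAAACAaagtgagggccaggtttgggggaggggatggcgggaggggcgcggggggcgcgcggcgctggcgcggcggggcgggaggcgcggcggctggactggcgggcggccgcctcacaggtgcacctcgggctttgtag
Cebpb: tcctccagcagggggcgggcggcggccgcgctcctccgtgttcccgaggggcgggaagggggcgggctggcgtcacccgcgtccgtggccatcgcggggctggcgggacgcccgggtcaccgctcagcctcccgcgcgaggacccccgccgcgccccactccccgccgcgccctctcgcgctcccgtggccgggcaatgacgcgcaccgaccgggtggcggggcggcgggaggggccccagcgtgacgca
Prox1 upstream start: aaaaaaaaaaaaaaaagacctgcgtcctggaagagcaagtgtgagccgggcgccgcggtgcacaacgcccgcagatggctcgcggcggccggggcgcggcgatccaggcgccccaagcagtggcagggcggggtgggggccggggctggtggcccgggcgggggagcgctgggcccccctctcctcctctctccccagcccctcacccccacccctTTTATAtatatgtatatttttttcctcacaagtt
Prox1 downstream start: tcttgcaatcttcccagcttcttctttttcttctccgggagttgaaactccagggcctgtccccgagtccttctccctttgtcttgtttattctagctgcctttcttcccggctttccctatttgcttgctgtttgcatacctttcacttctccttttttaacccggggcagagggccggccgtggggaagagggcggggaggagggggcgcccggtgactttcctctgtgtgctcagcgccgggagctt

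The upstream Hnf4a window held the ONECUT letters 60 bases before the start, and the downstream window held the HNF1 letters 83 bases before it. The Foxa1 window held the FOXA letters 141 bases before its start. Among 32851 mouse promoter windows of the same length, 2.61% held the ONECUT letters, 2.33% the HNF1 letters and 3.17% the FOXA letters. The Cebpb window, 81.6% G and C, held none of the 7 motifs, and the Prox1 windows held only the TATAAA letters, 34 bases before the upstream start, a match that 12.4% of all windows have. The NR5A and HNF4 letters occurred in none of the 14 windows of the 9 factors and in 1.33% and 1.2% of all windows. A match is a description of these letters and not a measured binding site.

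Prox1 was the factor that rose. Prox1 (chromosome 1, 190118035 to 190170714, minus strand, GENCODE M21 on GRCm38) stood at 87.8, 89.3 and 54.6 CPM in the WT livers and at 210, 121 and 171 CPM in the Hom livers. Every Hom liver lay above every WT liver, which was also so for 28.7% of all tested genes. The mean was 77.2 ± 19.6 CPM in WT and 167.3 ± 44.7 CPM in Hom livers, with a difference of 1.12 on the log2 scale (SE 0.256, adjusted p = 0.0135 in edgeR's test), and the 95% interval of the fold ran from 1.43 to 3.29. Prox1 passed the test in each of 15 alternative settings, with log2 fold changes from 0.91 to 1.55. In the 4 livers numbered 2 and 3, without the libraries that stood apart, it was 1.03 (adjusted p = 0.0293).

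Since lymphatic endothelium also makes Prox1, the markers of that cell type are set beside it. Of 7 lymphatic endothelial markers, Pdpn rose (log2 fold change 1.51, adjusted p = 0.0399), Reln and Flt4, a growth factor receptor of lymphatic vessels, fell (-1.55 and -0.93), and Lyve1 (0.29), Itga9 (0.30), Ccl21a (1.62) and Mmrn1 (1.51) did not pass the test. The call on Pdpn was lost with the replicate block (adjusted p = 0.066) and in 5 of 6 settings with a liver left out, the exception being without WT 3, and by library size alone 3 markers were higher and 1 lower. The summed level of the 7 was 103.8 to 135.7 CPM in WT livers and 78.3 to 82.7 CPM in Hom livers. Much of this sum and of its fall is Reln, at 62.2 ± 8.99 CPM in WT and 21.2 ± 5.82 CPM in Hom livers. Reln is also in the stellate cell and fibroblast list, and 5 of the 7 markers had log2 fold changes above 0. The part of lymphatic endothelium in the Prox1 level was not tested. The GENCODE M21 annotation places the antisense RNAs Prox1os and Gm28172 over Prox1, and the strand setting of the counting is not given, so reads from these and from Prox1 cannot be told apart. The same holds for Hnf4a with Hnf4aos and Cebpa with Gm45091, and Onecut1 shares its strand with the lincRNA Gm20649.

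Hnf4a fell in Hom livers. Hnf4a (chromosome 2, 163506808 to 163572910, plus strand) stood at 784, 967 and 829 CPM in the WT livers and at 578, 505 and 517 CPM in the Hom livers. The groups did not overlap, with the Hom livers close together below the WT livers, a pattern seen for 27% of all tested genes. WT livers were 1.61-fold above Hom livers (859.7 ± 95.2 against 533.2 ± 39.6 CPM), with a log2 fold change of -0.69 (SE 0.134, adjusted p = 0.00745 in edgeR's test). It stayed under the threshold with each liver left out, at -0.76 to -0.60. Scaled by library size alone, Hnf4a was at -0.23 and did not pass (adjusted p = 0.131), in a setting in which the median of all tested genes moved to 0.45.

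Cebpb fell as well. Cebpb, an intronless gene (chromosome 2, 167688915 to 167690418, plus strand), stood at 213, 149 and 176 CPM in the WT livers and at 104, 84.3 and 96.0 CPM in the Hom livers. Again every Hom liver lay below every WT liver, and WT 1, the WT liver with the most neutrophil and acute phase transcripts, was the highest of the 6. The WT mean was 1.90-fold the Hom mean, a log2 fold change of -0.92 (SE 0.150, adjusted p = 0.00385 in edgeR's test), and in the 4 livers numbered 2 and 3 it was -0.84 (adjusted p = 0.00476). By library size alone Cebpb was at -0.49 and just missed the threshold (adjusted p = 0.0528). The gene Tmem189 overlaps Cebpb on the opposite strand.

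Of the 3 forkhead factors, Foxa1 passed the test and Foxa2 and Foxa3 did not. Foxa1 (chromosome 12, 57540628 to 57546916, minus strand) stood at 20.7, 43.7 and 41.0 CPM in the WT livers and at 13.2, 21.8 and 18.3 CPM in the Hom livers. WT 1 lay among the Hom livers, so the groups overlapped, and the other 2 WT livers were well above them. Its log2 fold change was -0.98 (SE 0.306, adjusted p = 0.0388 in edgeR's test), and the call was lost by library size alone, with upper-quartile factors and without any 1 liver other than WT 1, where log2 fold changes ran from -1.16 to -0.49. Without WT 1 it was -1.26 (adjusted p = 0.00596).

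Foxa2 (chromosome 2, 148042877 to 148046969, minus strand) stood at 20.6, 64.3 and 56.4 CPM in the WT livers and at 27.1, 28.4 and 23.6 CPM in the Hom livers. Here WT 1 was the lowest of all 6 livers, while WT 2 and WT 3 were the highest. With all livers the log2 fold change was -0.83 (95% interval -1.73 to 0.06, adjusted p = 0.116), without WT 1 it was -1.20 (adjusted p = 0.00144) and with DESeq2 it was -0.84 (adjusted p = 0.0471). Foxa3 (chromosome 7, 19013284 to 19023538, minus strand) stood at 46.9, 60.9 and 41.9 CPM in the WT livers and at 56.2, 42.1 and 34.5 CPM in the Hom livers. These ranges overlapped nearly throughout, and its log2 fold change was -0.17 (95% interval -0.66 to 0.32, adjusted p = 0.532 in edgeR's test). Per library, the ratio of Foxa1 to Foxa3 counts in Hom livers was 0.593-fold that in WT livers, and the groups overlapped (exact permutation test, two-sided, p = 0.3, where 3 against 3 livers cannot go below 0.1).

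Cebpa (chromosome 7, 35119293 to 35121928, plus strand) stood at 289, 470 and 531 CPM in the WT livers and at 320, 375 and 304 CPM in the Hom livers. WT 1 was the lowest of the 6, and the other WT livers were the highest. The log2 fold change was -0.37 (95% interval -0.90 to 0.17, adjusted p = 0.228 in edgeR's test) with all livers and -0.59 (adjusted p = 0.0184) without WT 1. The ratio of Cebpa to Cebpb counts, both C/EBP factors that bind the same motif, was 1.36, 3.16 and 3.01 in the WT livers and 3.09, 4.45 and 3.17 in the Hom livers. WT 1 was alone below 3, and the groups overlapped (exact permutation test, two-sided, p = 0.2, adjusted 0.65 over 13 ratios).

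Onecut1 was the most variable of the 9. Onecut1 (chromosome 9, 74861921 to 74891781, plus strand) had 42, 288 and 513 counts in the WT livers, or 2.35, 18.5 and 31.5 CPM, and 264, 393 and 135 counts in the Hom livers, or 12.3, 16.2 and 5.82 CPM. The highest WT liver was 13.4-fold the lowest, and the dispersion of Onecut1 was above that of 98.2% of tested genes. Its log2 fold change of -0.60 had a 95% interval from -2.45 to 1.24 (adjusted p = 0.563 in edgeR's test), wide enough to hold a decrease or an increase of more than 2-fold. The log2 fold change of Onecut1 was 0.14 without WT 3 and -1.13 without WT 1 (adjusted p = 0.0806 in edgeR's test). Nr5a2 (chromosome 1, 136842571 to 136960448, minus strand) was among the steadiest, at 70.5, 80.9 and 68.8 CPM in the WT livers and 67.0, 55.8 and 64.3 CPM in the Hom livers. Every Hom liver was below every WT liver, yet the lowest WT liver and the highest Hom liver were nearly level, and the log2 fold change of -0.24 did not pass the test (95% interval -0.48 to 0.01, adjusted p = 0.108).

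**Figure D2:**
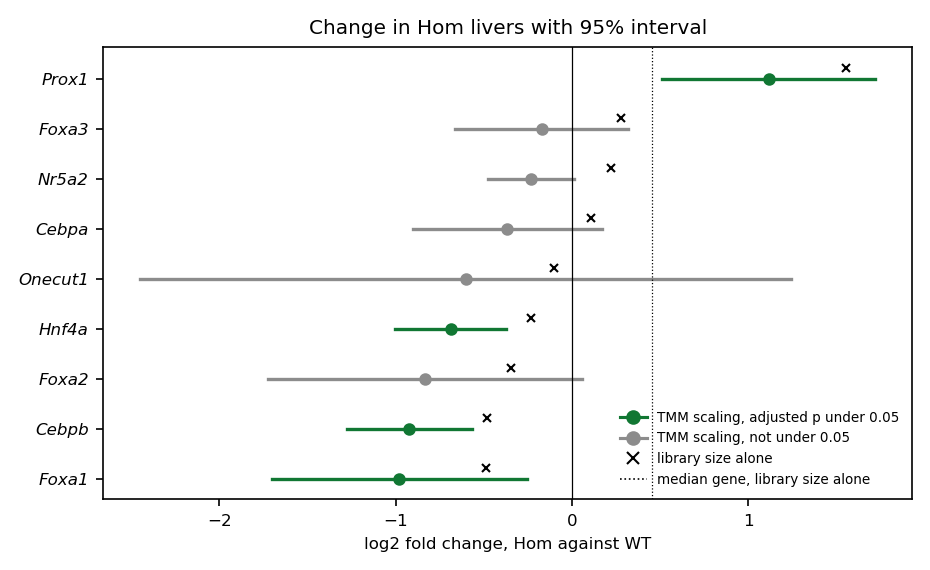
log2 fold change of each factor in Hom against WT livers (x axis) with TMM scaling and its 95% interval, green where the adjusted p was under 0.05, and crosses for scaling by library size alone. The crosses sit to the right of the points by about the 0.45 by which the median gene (dotted line) moved, and only Prox1 stays to the right of that line.

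Across the 9 factors, the groups did not overlap for Prox1 (Hom above) and for Hnf4a, Cebpb and Nr5a2 (Hom below), and overlapped for the other 5 factors. Among all tested genes, 28.7% had Hom above WT and 27% had Hom below WT without overlap, so such patterns were common in the whole table. By library size alone, Foxa3, Cebpa and Nr5a2 had positive log2 fold changes (0.28, 0.11 and 0.22, none past the threshold) and no factor passed as lower, with Cebpb alone lower at an unadjusted p under 0.05 in edgeR. Relative to the median of all genes in that setting, the 8 factors other than Prox1 lay below it, by 0.18 for Foxa3 to 0.94 for Foxa1 and Cebpb, and Prox1 lay 1.10 above.

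Some of the factors also varied together from liver to liver inside the groups. As a description over 6 livers after subtracting each group's mean, Onecut1 followed Cebpa (r = 0.98) and Foxa2 (r = 0.94), Foxa2 followed Cebpa (r = 0.94), and Foxa1 followed Cebpa (r = 0.88) and Foxa2 (r = 0.85). WT 1 was the low liver in each of these, and Cebpb ran the other way against Foxa1 (r = -0.92) and Foxa2 (r = -0.82). Hnf4a ran with Nr5a2 (r = 0.84) and Foxa3 (r = 0.80), and Prox1 with Nr5a2 (r = 0.82). Other pairs lay near 0, such as Onecut1 with Nr5a2 (r = -0.03) and Foxa3 with Cebpa (r = 0.05). WT 1 is 1 of 6 points in each value and stands apart, so these numbers rest on it to an extent that was not tested.

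**Figure D3:**
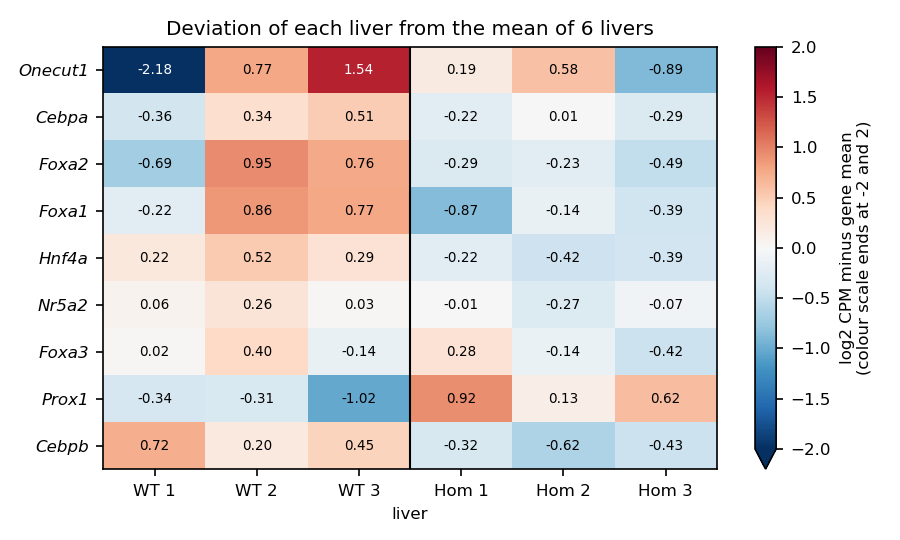
Heat map of the log2 CPM of each factor (rows) in each liver (columns) minus that factor's mean over 6 livers, with the value printed in each cell. WT 1 is low for Onecut1 (-2.18), Foxa2 (-0.69), Cebpa (-0.36) and Foxa1 (-0.22), unlike WT 2 and WT 3, and it is the highest liver for Cebpb (0.72).

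Levels of different factors can be compared only per length, for which the deposited TPM values were used. TPM is not corrected for the shift that TMM removes, so only the order within each group is given. The values of Onecut1 imply a length of 1775 bases, against 3957 for its longest GENCODE M21 transcript, and its place in the order rests on that. In WT livers Hnf4a led with 286.3 TPM, followed by Cebpa with 234.8 and Cebpb with 178.4, and these 3 overlapped as neighbours. A gap separated them from Foxa3 (36.0), Foxa2 (31.9) and Nr5a2 (23.9). Below those came Foxa1 (15.7), Prox1 (14.4) and Onecut1 (13.4), which overlapped as neighbours. In Hom livers Cebpa (286.2 TPM) and Hnf4a (273.8) overlapped at the top, with Cebpb (142.1) below them. Foxa3 (48.8) and Prox1 (47.0) came next and overlapped, then Nr5a2 (30.9) and Foxa2 (28.4), and then Onecut1 (14.3) and Foxa1 (12.7). Prox1 thus moved from rank 8 to rank 5 of 9 by mean, though both ranks are inexact because its neighbours overlapped it.

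Each factor was also set against hepatocyte markers within its own library, a ratio that no scaling changes. The 40 markers held 28.5%, 25.8% and 23.1% of all counts in the WT livers and 23.9%, 19% and 20.6% in the Hom livers, so the groups overlapped, with Hom 1 above WT 3. After TMM scaling their sum was 276900 to 320300 CPM in the WT group and 154200 to 219800 CPM in the Hom group, without overlap. Of the 40, 24 fell, none rose and 16 did not pass in edgeR's test (median log2 fold change -0.80). When libraries were scaled by size alone, 15 were lower and 2 higher, and with single livers left out 13 (without Hom 3) to 29 were lower. At an unadjusted p under 0.05 2 were higher, Trf (log2 fold change 0.67) and Hpx (1.15), and DESeq2 called 1 marker as higher. Per 10000 hepatocyte marker counts, Hnf4a stood at 25.4, 30.2 and 29.9 in the WT livers and at 26.3, 32.7 and 30.1 in the Hom livers. This ratio was 1.04-fold and overlapped between the groups (exact permutation test, two-sided, p = 0.6). The marker sum is dominated by a few secreted proteins such as albumin, of which several are HNF4A, FOXA or C/EBP targets, so it is not an independent count of hepatocytes.

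Prox1, by the same measure, stood at 2.85, 2.79 and 1.97 in the WT livers and at 9.56, 7.84 and 9.94 in the Hom livers. It was 3.63-fold higher with no overlap, at the smallest p this exact permutation test allows (0.1, two-sided, adjusted 0.433 over 13 ratios). Foxa3 was 1.47-fold and Nr5a2 1.42-fold higher relative to the markers, also without overlap and with the same p. Since the marker sum was lower in Hom livers after TMM scaling, a gene that held level would rise by this ratio too. With TMM scaling Foxa3 and Nr5a2 had log2 fold changes of -0.17 and -0.24. The share of all genes without overlap by this ratio is not given. Cebpb was at 0.889-fold and Foxa1 at 0.873-fold, with overlapping livers (exact permutation test, p = 0.5 and p = 0.6). For Cebpa (1.33-fold), Foxa2 (1.05-fold) and Onecut1 (1.59-fold) the livers overlapped as well.

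**Figure D4:**
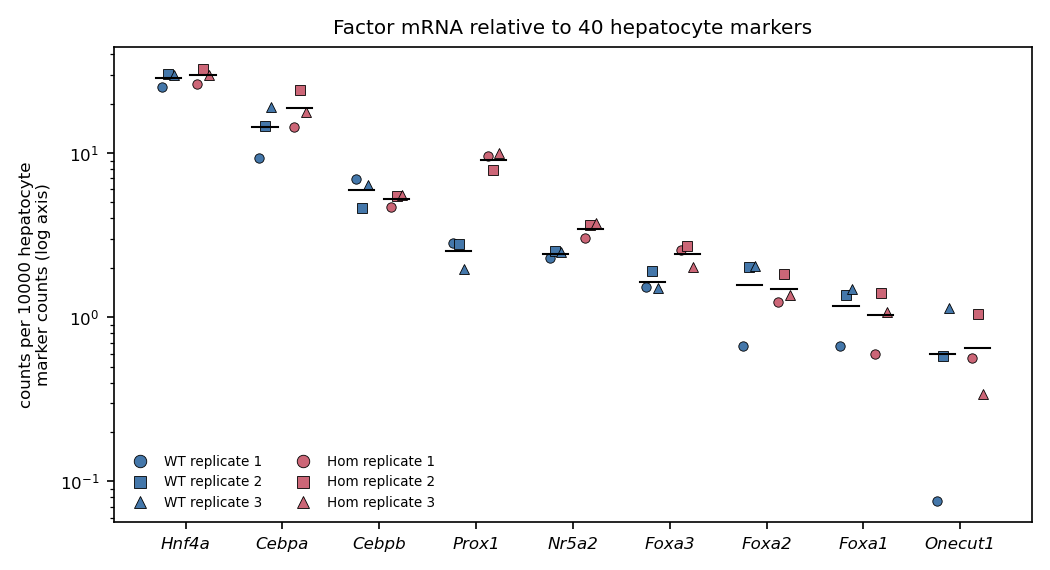
Counts of each factor per 10000 counts of 40 hepatocyte markers in the same library (log axis), WT in blue and Hom in red, with group means as black lines. Hnf4a lies at 25.4 to 32.7 in all 6 livers, while Prox1 lies at 1.97 to 2.85 in WT and 7.84 to 9.94 in Hom livers.

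Of the textbook targets of the 9 factors, more fell than rose in Hom livers, and the counts moved with single livers. In the 4 target lists without the factors themselves, 36 of 70 genes tested fell (51.4%), 5 rose and 29 did not pass, against 20.1% lower and 21.5% higher among all genes, and 14 of the 70 are also in the hepatocyte marker list. On library size alone 19 were lower and 11 higher. With single livers left out 22 (without Hom 3) to 42 (without Hom 1) of the 70 were lower and 3 to 8 higher, and without Hom 3 the share of all genes called lower went to 12.6%. Of 37 HNF4A targets, 26 fell, Apoa4 (1.09) and Cyp7a1 (2.12) rose and 9 did not pass (median log2 fold change -0.67). Ttr, the carrier of thyroid hormone and retinol-binding protein, fell from 7050 ± 162 to 1950 ± 127 CPM (log2 fold change -1.85), and the carboxylesterase Ces2a fell from 405.8 ± 19.7 to 123.6 ± 18.3 CPM (-1.72). The abundant plasma proteins Apoa1 (-0.67) and Serpina1b (-1.01) fell too. Scaled by library size alone, 13 of the 37 were lower and 3 higher, and 14 (without Hom 3), 16 (without WT 2) and up to 27 were lower with single livers left out.

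Of 17 FOXA targets, 8 fell, Cyp7a1 rose and 8 did not pass. This list keeps 2 of the factors, Hnf4a among those that fell and Nr5a2 among those that did not pass. Some genes, such as Ttr and G6pc, stand in more than 1 target list, so the counts of the lists are not separate results. Alb, the albumin gene whose enhancer is a classic FOXA site and whose promoter drives the Cre, fell from 114200 ± 15400 to 47690 ± 8080 CPM (log2 fold change -1.26), and G6pc, the last enzyme of glucose release, fell by 1.70 on the log2 scale. With library size as the scale, 4 of the 17 were lower and 3 higher, 4 were lower without WT 2 or without Hom 3, 5 without WT 3, and up to 10 with another liver left out.

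Of 24 C/EBP targets, 11 fell, Hp (1.23) and C3 rose and 11 did not pass. The complement gene C3 rose from 9042 ± 1730 to 16710 ± 3950 CPM (log2 fold change 0.89, adjusted p = 0.0293 in edgeR's test), and the cytochrome gene Cyp2d10 fell by 1.16 on the log2 scale. Hp (adjusted p = 0.0483) lost its call without any 1 liver other than WT 1, and C3 without WT 2, WT 3 or Hom 3. The number of higher genes in this list was thus 0 in the latter settings, 1 without Hom 1 or Hom 2, 5 without WT 1, 4 by library size alone and 6 with the replicate block. The number of lower genes was 8 to 14 with single livers left out and 8 by library size alone. Acute phase members of this list were uneven between livers of a group. Orm2 had 8948, 413 and 467 counts in the WT livers and 70120, 26936 and 24003 in the Hom livers, and Saa1 had 6675, 1159 and 543 against 28663, 4157 and 3496. WT 1 and Hom 1 were the high livers of their groups, and neither gene passed the test.

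Of 20 targets assigned to NR5A2, PROX1 or ONECUT1, 12 fell, 2 rose, Cyp7a1 among them, and 6 did not pass (median log2 fold change -0.92). The factor Foxa2 is in this list, among those that did not pass. With no TMM factors 8 were lower, as without Hom 3, and the other livers left out gave 9 to 13. Slc10a1, the main bile acid uptake transporter, fell from 664.3 ± 54.9 to 228.5 ± 27.4 CPM (log2 fold change -1.54). A pair of bile acid enzymes, chosen for mention after their values were seen, went opposite ways. Cyp7a1, the rate-limiting enzyme of bile acid synthesis, had 513, 549 and 1152 counts in the WT livers and 4054, 5979 and 3492 in the Hom livers, and rose 4.36-fold (log2 fold change 2.12, adjusted p = 0.00457 in edgeR's test). Cyp8b1, which steers synthesis towards cholic acid, had 2093, 6446 and 7943 counts in the WT livers and 52, 500 and 486 in the Hom livers (log2 fold change -4.53, adjusted p = 0.00749). The groups of each gene did not overlap. Nr0b2, the co-repressor SHP that bile acids induce, fell from 63.1 ± 7.55 to 24.8 ± 4.29 CPM (log2 fold change -1.35, adjusted p = 0.00101).

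**Figure D5:**
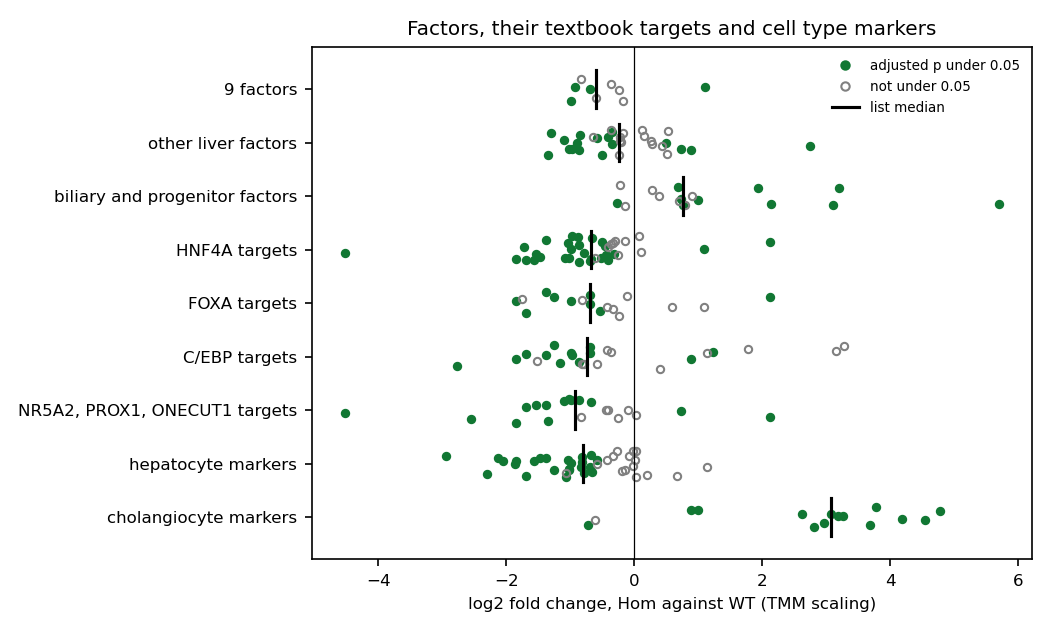
log2 fold change with TMM scaling of every tested gene (points) in the 9 factors, other transcription factor lists, target lists and marker lists, with filled points for an adjusted p under 0.05 and a black line at each median. The target lists and hepatocyte markers have medians from -0.92 to -0.67, the cholangiocyte markers 3.07 and the biliary and progenitor factors 0.77. A gene may stand in more than 1 list.

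Among 31 other liver transcription factors, 13 fell, 4 rose and 14 did not pass. Besides Nr0b2, the xenobiotic receptor Nr1i3 (CAR) fell from 87.7 ± 5.20 to 43.2 ± 1.54 CPM (log2 fold change -1.02), the stress factor Atf5 fell by 0.97 and Rxra, the partner of many nuclear receptors, by 0.41 on the log2 scale. Gata6 (0.88), Nr2f2 (0.50) and Cux2 (2.75) were among the 4 that rose. Without Hom 3, 8 were lower. By library size alone 7 fell and 11 rose, and the median of the list went from -0.24 to 0.19. Of the family members of the 9 factors, Cebpe (-0.81, adjusted p = 0.0443) and Ddit3 (-0.68, adjusted p = 0.0386) fell, both calls being lost by library size alone, with upper-quartile factors and without WT 2, Hom 2 or Hom 3. The levels of Cebpd (-0.14), Cebpg (-0.09), Cebpz (-0.15), Onecut2 (0.28) and Prox2 (0.14) did not pass the test.

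Factors of bile duct and progenitor cells went the other way. Of 17 tested, 9 rose, Yap1 fell (-0.27) and 7 did not pass, and the number higher was 6 (without Hom 3) to 10 with single livers left out. By library size alone 12 rose and none fell, also at an unadjusted p under 0.05 in edgeR. Elf3, an epithelial ETS factor, rose from 0.58 ± 0.133 to 30.8 ± 9.33 CPM (log2 fold change 5.71, adjusted p = 1.59e-04 in edgeR's test), and Sox4 rose from 3.33 ± 0.648 to 28.9 ± 4.01 CPM (3.11). Onecut2, the paralogue of Onecut1, was at 90.9 ± 8.19 and 110.5 ± 12.4 CPM and did not pass (adjusted p = 0.081), nor did Zfp36l1 (-0.14). Sox9, which marks bile duct cells and ductular progenitors, rose by 1.00 on the log2 scale.

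Markers of other cell types moved at the same time, and their part in the levels of the 9 factors was not tested. Of 15 cholangiocyte markers 13 rose and Aqp1 fell (-0.72), and their sum was 162.3 to 207.9 CPM in WT and 811 to 1059 CPM in Hom livers, with Spp1 at 43.3 ± 14.0 against 595.7 ± 119 CPM and Prom1 higher by 4.78 on the log2 scale. Of 17 stellate cell and fibroblast markers 9 rose and 3 fell, with sums of 595.2 to 716.5 and 856.8 to 962.5 CPM, among them Lum (2.48), Pdgfra (2.11) and the falling Ecm1 (-2.30). Of 18 macrophage markers 5 rose and 2 fell (3 higher without WT 2, Hom 2 or Hom 3, 12 without WT 1, and 11 by library size alone), with sums of 375.4 to 904.7 and 701.7 to 931.7 CPM, and Cd14 and Ccr2 rose by 3.33 and 3.19. Of 14 endothelial markers 7 fell and Vwf rose (1.59), against 4 lower and 4 higher by library size alone, with sums of 341.2 to 453.5 and 276.1 to 284.4 CPM, and the sinusoidal genes Clec4g (-2.13) and Oit3 (-1.85) fell. The most abundant of the 14, Eng (-0.24) and the sinusoidal gene Stab1 (-0.03), did not pass. Of 8 lymphocyte markers tested 2 rose, Ptprc and Cd3e, calls that were both lost without WT 2, WT 3, Hom 2 or Hom 3 and with the replicate block. Of 8 neutrophil markers tested only Cebpe fell, and without WT 1, 3 were higher, with sums of 16.6 to 153.9 and 27.6 to 69.6 CPM. The acinar genes Cela1 (which fell by 2.31) and Cela2a (-1.27, not past the threshold) were the 2 pancreatic genes tested.

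Genes whose levels ran most like each factor across the 6 livers are named by Pearson's r of log2 CPM, as a description over livers that share the WT and Hom split. Among 8139 genes with a mean of at least 10 CPM, Senp5 (0.999) and Rgp1 (0.997) were closest to Hnf4a, Ccm2 and Clk3 (both 0.997) to Cebpb, and Myo18a (0.995) and Man1a2 (0.987) to Prox1. Abcc3 (0.996) and Rnf103 (0.995) were closest to Foxa1, Pigt (0.990) and Hemk1 (0.986) to Foxa2, and Slc35a1 (0.995) and Rapgef1 (0.988) to Foxa3. Parp1 (0.990) was among the closest to Cebpa, Stambp (0.986) and Smo (0.983) were closest to Onecut1, and Spin1 (0.995) and Prr16 (0.990) to Nr5a2. With 6 points and this many candidates, values this near 1 are reached for every factor.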

How the data were processed

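RNA of 6 livers was extracted with Trizol and sequenced on the DNBSEQ platform. According to the submitters' processing notes, HISAT2 2.0.4, Bowtie2 2.2.5, RSEM 1.2.12 and the mm9 build were used, and strandedness is not given in the sources used here. The authors deposited RSEM estimated counts, FPKM and TPM per gene and liver. The authors' TPM ordered factors within a group, and the authors' FPKM was used only to recover gene lengths. The 6 deposited mean columns have crossed group names and were not used. Rounded estimated counts entered edgeR 4.0.16 in R 4.3.3 (filterByExpr, TMM, quasi-likelihood F test, Benjamini-Hochberg over all 13805 genes). Positions are from GENCODE M21 on GRCm38. The 3 livers of a group are separate mice. The members and gene lists were chosen with earlier results of these data known. Named genes are the 9 factors, Nek7, in each other list the 2 most abundant genes and the 2 with the smallest adjusted p, and the 2 genes most like each factor, others being counted or named as examples after their values were seen. A few genes that the rule or the lists hold are not reported here. Alternatives were DESeq2 1.42.0, other scalings and filters, a fold minimum, a loess correction for gene length or GC content, the replicate number as a block and each liver left out. On simulated data for this comparison, 56.8% of 192 genes changed by 1 on the log2 scale were recovered among 13166 tested. The simulation gave every gene the same dispersion and changed few genes, while 41.7% of genes were called in the data. The recovered share is therefore a check of the code and does not give the power of this comparison.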

Additional observations from a re-analysis of the deposited data

How the results depend on the processing

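Of 135 values of the 9 factors under 15 alternatives, 119 kept their direction and their side of the threshold, 9 lost the call, 3 gained it and 4 changed sign. By library size alone, log2 fold changes were -0.23 for Hnf4a, -0.49 for Foxa1, -0.49 for Cebpb (none past the threshold), 0.28 for Foxa3, 0.11 for Cebpa and 0.22 for Nr5a2. No factor was then lower, while 6574 of all genes were higher and 642 lower, and the medians of the other liver factors and of the family members turned to 0.19 and 0.22. This setting moves the median gene up by 0.45, so which scaling is right decides these calls. With upper-quartile factors Foxa1 was at -0.89 (adjusted p = 0.0543), and with DESeq2 Foxa2 was at -0.84 and passed. When a change of 1 or more on the log2 scale was required, 0 factors were lower and 1, Prox1, was higher. With each liver left out, Foxa1 ranged from -1.26 to -0.80, Foxa2 from -1.20 to -0.55, Cebpa from -0.59 to -0.20, Onecut1 from -1.13 to 0.14 (positive without WT 3) and the count of lower factors from 2 to 5, with 5 when WT 1 was left out. In these settings 12.6% (without Hom 3) to 19.4% (without WT 1) of all genes were lower. Using livers 2 and 3 of each group, chosen after seeing the data, Foxa2 (-1.20) and Cebpa (-0.55) passed. The log2 ratios to the hepatocyte marker sum of Hnf4a (-0.02 to 0.14), Foxa1 (-0.56 to 0.15), Foxa2 (-0.47 to 0.34) and Onecut1 (-0.47 to 1.48) changed sign with a liver left out: Hnf4a without WT 1 (-0.0226) or Hom 2 (-0.0155), Foxa1 without WT 3 (0.0145) or Hom 1 (0.15), Foxa2 without WT 1 (-0.4688) or Hom 2 (-0.1025), Onecut1 without WT 1 (-0.4718). The causes were not tested.

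WT and Hom livers share the numbers 1 to 3 but are different mice, and the deviations of same-numbered livers did not run together (mean r = -0.076, none closest to its own number). With the replicate block, 1 factor was higher and 3 were lower, Hnf4a was at -0.69, and 2383 genes were higher and 2214 lower overall. Nearly equal depth does not limit these factors, apart from Onecut1 with 42 counts in WT 1.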
